A study of Homo sapiens with 20 samples.

Results

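The genes described here are 6 keratins of luminal and simple epithelium, KRT8, KRT7 and KRT80 of type II and KRT18, KRT19 and KRT10 of type I. They were taken by gene symbol from both count tables of an RNA-seq study of the LNCaP prostate cancer line, each of which lists 57773 genes. All 6 were found, beside 50 other keratin genes. LNCaP is an androgen-sensitive human prostate cancer line with a luminal character.

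Keratins are the intermediate filament proteins of epithelial cells, and a filament can form only from type I and type II chains paired with each other. KRT8 and KRT18 are the pair of simple and glandular epithelium, and luminal cells of the prostate are known for carrying them while basal cells carry KRT5 and KRT14. KRT19 and KRT7 are further simple-epithelium keratins, KRT10 is best known from differentiating epidermis, and KRT80 is a filament keratin reported in many epithelia.

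The study asked what the histone methyltransferase EHMT1 does to gene expression and whether its neighbouring lysines K450 and K451 matter for it. Parental LNCaP cells were transfected for 2 days with 20 nM of a non-target siRNA (siNTC, 2 samples) or of siRNA against EHMT1 (siEHMT1, 2 samples). In addition, 4 stable LNCaP lines (LNCaP-tet-EHMT1) carried a doxycycline-regulated, V5-tagged EHMT1 that was either wild type (WT) or had 1 or both lysines replaced by arginine (K450R, K451R and K450RK451R). Each line was left untreated (Veh) or given 0.25 µg/mL doxycycline for 2 days (Dox), and all Dox samples therefore share both the drug and an induced EHMT1. All cells grew in RPMI medium with fetal bovine serum, which was tetracycline-free for the stable lines. These lines were made by lentiviral infection and puromycin selection. No stable line without the EHMT1 insert was analysed here, and the sources used here do not give the number of clones behind a line.

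The stable-line table has 2 columns for each of its 8 conditions, but within every condition the columns differed by no more than counting noise (chi-square per degree of freedom 0.995 to 1.02). They were summed and counted as 1 library per condition, so the 20 samples became 12 libraries, and within a line there is no replicate. Totals ran from 5593400 to 12438006 counts in the siRNA samples and from 8436791 to 12407739 in the summed libraries. EHMT1 checked the labels, with 87.5 and 83.4 CPM (counts scaled to a library size of 1e6) in siNTC against 29.2 and 30.7 in siEHMT1, and 71.5 to 88.6 CPM in Veh against 661 to 840 in Dox. The luminal marker list fixed for this work (14 genes matched) summed to 7142 CPM or more in every library, while 11 basal markers summed to 2.78 CPM at most, with KRT5, KRT17, TP63 and CAV1 at 0 throughout.

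The luminal pair made up nearly all of the keratin signal. Per kilobase of the canonical transcript, KRT8 and KRT18 together held 95.9% to 97.8% of the summed level of the 6 genes in every library. With these lengths KRT18 had the highest level in every library, at 137 to 175 CPM per kb over the 4 siRNA samples and 208 to 273 CPM per kb over the 8 stable-line libraries. KRT8 followed at 102 to 109 CPM per kb in the siRNA samples and 190 to 268 CPM per kb in the stable lines. The next keratin was far below this pair: KRT19 reached 3.05 to 7.79 CPM per kb in the siRNA samples and 4.26 to 8.49 in the stable lines. KRT10 lay at 2.53 to 2.97 CPM per kb and at 3.14 to 5.82 CPM per kb, and KRT80 at 0.17 to 0.53 and at 1.05 to 1.83 CPM per kb. KRT7 was barely counted at all, with 2 counts in the first siEHMT1 sample and 0 in the 3 other siRNA samples.

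**Figure D1:**
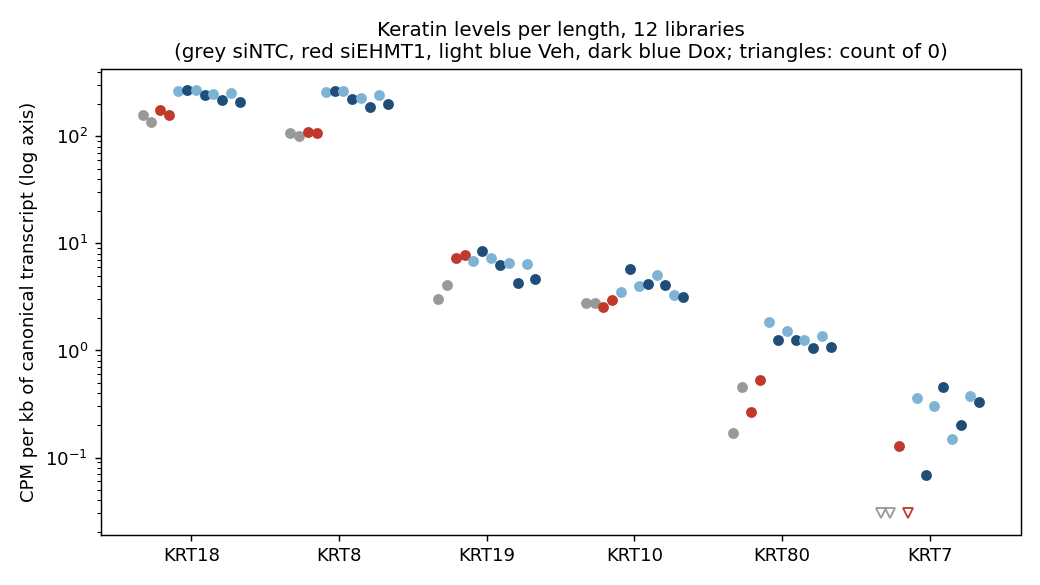
Level of each keratin in CPM per kilobase of canonical transcript on a log axis, with 1 point for each of the 12 libraries (grey siNTC, red siEHMT1, light blue Veh, dark blue Dox) and triangles at an arbitrary height for a count of 0. KRT18 and KRT8 stand above 100 CPM per kb in every library, while no library of the other 4 keratins reaches 10 CPM per kb.

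The genes of the pair lie beside each other. In GRCh37, KRT8 is at chr12:53290971-53343738 on the minus strand and KRT18 at chr12:53342655-53346690 on the plus strand, and the annotations of both overlap at chr12:53342655-53343738. KRT80 (chr12:52562780-52585798, minus strand) and KRT7 (chr12:52626304-52645970, plus strand) are in the same type II cluster. The type I genes KRT19 (chr17:39679869-39684560) and KRT10 (chr17:38974369-38978866) are both on the minus strand of chromosome 17. All 6 are protein-coding. KRT7 overlaps KRT86, KRT87P and KRT7-AS, KRT10 the antisense gene KRT10-AS1, and KRT80 the antisense LINC00592, which had at most 1 count in any library.

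RefSeq promoter windows, from 250 bases before to 50 bases after a start site, were matched for KRT8 and KRT10 of the 6 genes. They are shown as the windows that the table gave for these genes. The KRT10 window (GRCh38.p14, chr17:40822565-40822864, minus strand) surrounds the start of the canonical transcript. Capitals mark TATAAA and, as ATTGG on the printed strand, CCAAT. The KRT8 window (GRCh38.p14, chr12:52926420-52926719, minus strand) belongs to an annotated start 21393 bases upstream of the canonical one, and so is not the promoter of the canonical transcript.
KRT10: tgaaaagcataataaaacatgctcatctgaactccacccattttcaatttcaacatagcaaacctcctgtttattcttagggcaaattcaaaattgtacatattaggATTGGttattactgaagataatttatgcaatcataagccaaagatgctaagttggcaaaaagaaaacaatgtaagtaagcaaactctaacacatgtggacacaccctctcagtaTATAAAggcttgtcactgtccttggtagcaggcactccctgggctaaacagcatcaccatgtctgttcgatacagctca
KRT8: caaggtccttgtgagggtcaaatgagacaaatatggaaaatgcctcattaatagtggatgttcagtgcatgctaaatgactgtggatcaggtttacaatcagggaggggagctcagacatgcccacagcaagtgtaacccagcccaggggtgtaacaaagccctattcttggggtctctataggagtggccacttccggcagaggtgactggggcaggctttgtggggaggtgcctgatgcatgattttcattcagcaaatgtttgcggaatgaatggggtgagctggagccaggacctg
Both strands were searched for 5 motifs, the TATA box (TATAAA), the GC box (GGGCGG), the CCAAT box (CCAAT), the AP-1 motif (TGANTCA) and the E-box (CACGTG), and the KRT8 window held none of them. Of 35116 promoter windows of the same length in the table, 11.5% held the TATA box, 34.6% the CCAAT box, 45.0% the GC box, 7.71% the AP-1 motif and 7.26% the E-box. A match is a description of the letters and no evidence of a bound factor.

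Silencing of EHMT1 left the luminal pair near its control level, and the largest difference among the keratins was in KRT19. None of the 5 keratins tested passed an adjusted p of 0.05 (edgeR quasi-likelihood test, Benjamini-Hochberg over 14532 genes), against 0.131% of all genes tested. At an unadjusted p under 0.05 it was 1 of 5, KRT19, against 9.58% of all genes. limma-voom called none either, nor did DESeq2, which gave KRT19, KRT10 and KRT80 no adjusted p.

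KRT8, the type II chain of the pair, had 191 and 181 CPM in siNTC and 195 and 193 CPM in siEHMT1. Both siEHMT1 values lay above both controls, as they did for 19.9% of all genes, but by less than the spread the test allows (log2 fold change 0.06, SE 0.087, adjusted p = 0.887 by edgeR). The 95% interval of that log2 change ran from -0.13 to 0.24. KRT18, its type I partner, had 226 and 194 CPM in siNTC and 247 and 223 CPM in siEHMT1. Its groups overlapped (log2 fold change 0.16, SE 0.095, adjusted p = 0.618 by edgeR), with a 95% interval from -0.04 to 0.36.

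KRT19, a type I keratin that also occurs in ducts and in many carcinomas, had 4.24 and 5.72 CPM in siNTC and 10.1 and 10.8 CPM in siEHMT1. These levels rest on 45 and 29 counts against 97 and 136 counts. Both siEHMT1 samples were above both controls, and the means were 4.98 ± 1.04 and 10.5 ± 0.517 CPM (SD, n = 2 each). The log2 fold change was 1.11 (SE 0.24), with an unadjusted p of 0.000178 and an adjusted p of 0.0721 in the edgeR fit over all genes, so KRT19 missed the threshold. The call turned on single controls: the adjusted p by edgeR was 0.0164 without siNTC replicate 2, the shallowest sample, and 0.284 without siNTC replicate 1, with log2 fold changes of 1.30 and 0.87.

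KRT10 had 5.94 and 5.91 CPM in siNTC and 5.42 and 6.37 CPM in siEHMT1, so that the controls fell inside the range of the treated samples (log2 fold change -0.0036, SE 0.26, adjusted p = 0.998 by edgeR). The sign of so small a value changed with the scaling and with the sample left out. The 95% interval, from -0.54 to 0.53, does not exclude a change of moderate size.

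KRT80 was counted 7 and 9 times in siNTC and 10 and 26 times in siEHMT1, or 0.66 and 1.77 CPM against 1.04 and 2.07 CPM. The groups overlapped, and the log2 fold change of 0.58 (SE 0.56, adjusted p = 0.784 by edgeR) turned to -0.05 without siEHMT1 replicate 2 and to -0.14 without siNTC replicate 1. KRT7 did not pass the filter on low counts. A count of 0 in the siNTC samples allows a level of up to 0.283 and 0.591 CPM (3 counts of each library), so a fall or a small rise of KRT7 was not detectable at this depth.

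In the stable lines, Dox went with lower KRT8 and KRT18 in each of the 3 mutant lines and with hardly any difference in the WT line. KRT8 had 468 CPM in Veh and 478 CPM in Dox in the WT line. It had 479 and 395 CPM in K450R, 408 and 338 CPM in K451R, and 438 and 358 CPM in K450RK451R. All 3 mutant lines were thus lower with Dox, by log2 ratios of -0.28, -0.27 and -0.29, and the WT line was at 0.03. The 95% counting intervals of the Dox over Veh ratio were 0.79 to 0.865 in K450R, 0.792 to 0.867 in K451R and 0.784 to 0.852 in K450RK451R, against 0.981 to 1.06 in WT. An interval wholly below 1 was found for 13.1%, 14.6% and 17.8% of all tested genes in these mutant lines and for 11.3% in WT. With 1 library a condition, these intervals cover counting error only and say nothing of the spread between cultures.

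KRT18 followed the same course. It had 378 CPM in Veh and 383 CPM in Dox in the WT line, 386 and 341 CPM in K450R, 352 and 308 CPM in K451R, and 357 and 293 CPM in K450RK451R. The ratio of Dox to Veh was 0.884 (counting interval 0.841 to 0.929) in K450R, 0.873 (0.832 to 0.917) in K451R and 0.823 (0.786 to 0.862) in K450RK451R. In WT it was 1.01 (0.969 to 1.06). KRT8 and KRT18 were thus 2 of the 5 tested keratins with an interval below 1 in all 3 mutant lines and across 1 in the WT line, a pattern that 1.55% of the 14105 tested genes had. Both genes kept this pattern with upper-quartile normalization, but not in plain CPM, without scaling factors. In plain CPM the interval of KRT18 in K451R reached across 1 (0.91 to 1.002) and that of KRT8 in WT lay above 1 (1.01 to 1.09), so neither gene kept it. The intervals narrow as counts grow, and both genes had at least 2904 counts in every stable-line library, so a small difference is seen here that would not be seen in a gene of low level.

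**Figure D2:**
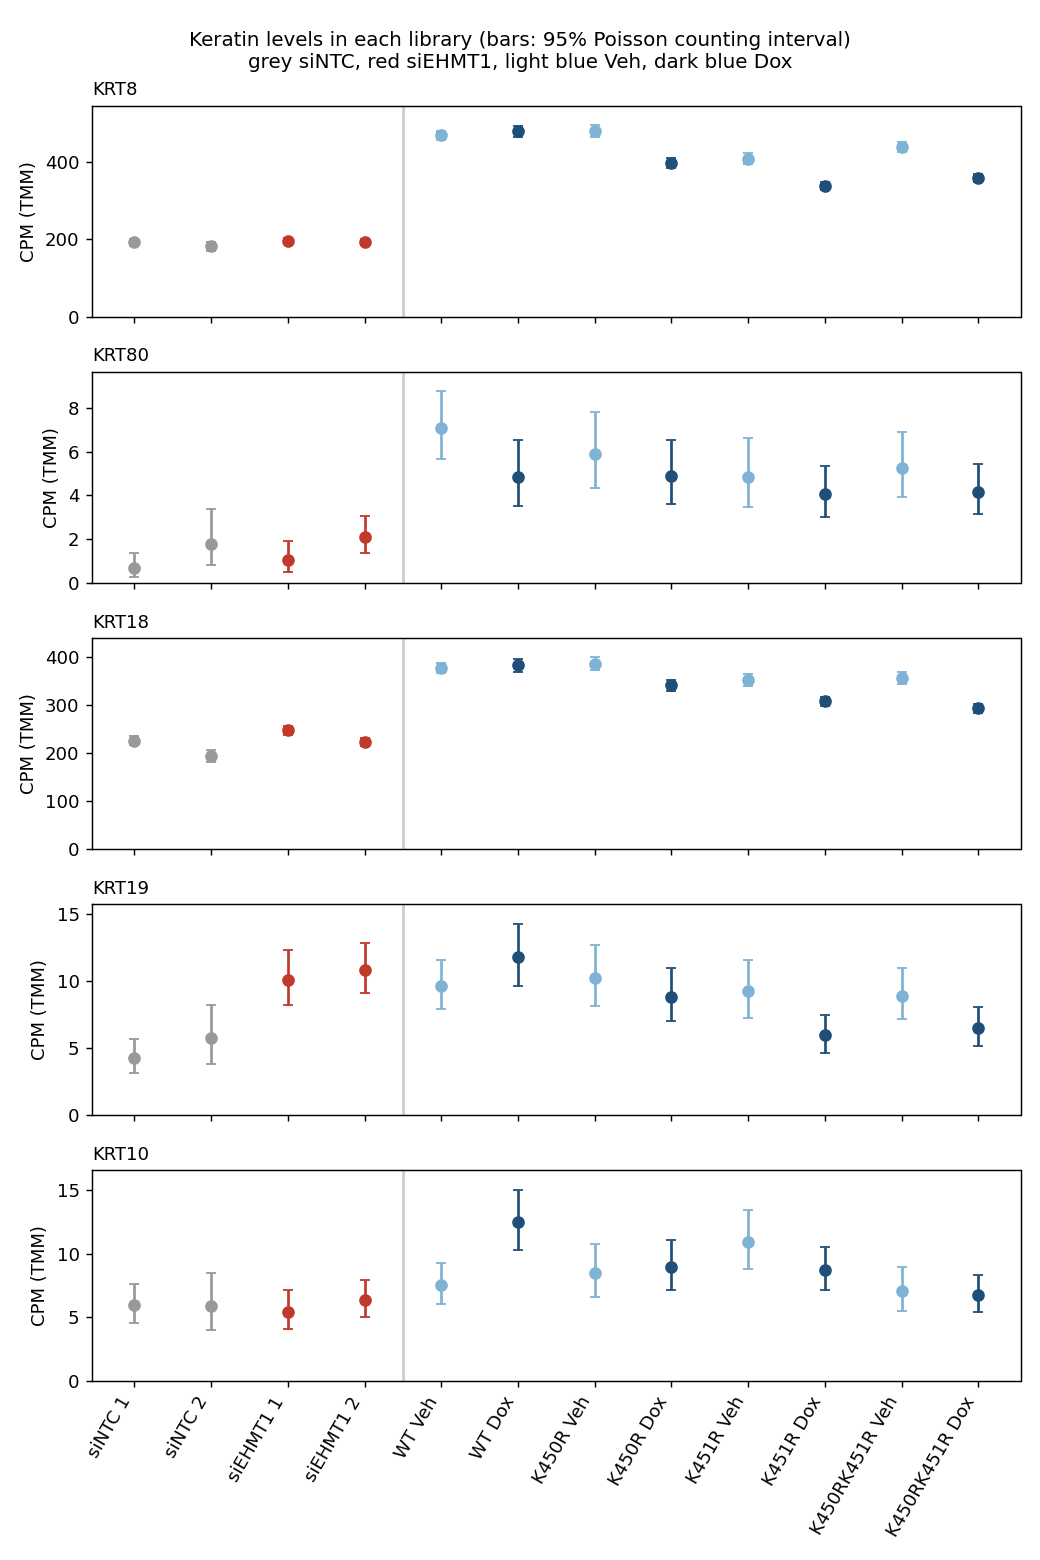
TMM-scaled CPM of the 5 tested keratins in each of the 12 libraries, siRNA samples left of the vertical line and stable lines right of it, with points for the level and bars for the 95% Poisson counting interval (grey siNTC, red siEHMT1, light blue Veh, dark blue Dox). KRT8 and KRT18 are lower in Dox than in Veh in the 3 mutant lines, and KRT19 is higher in both siEHMT1 samples than in both siNTC samples.

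Over the 4 lines taken as replicates of the Dox treatment, with the line as a block, no keratin passed an adjusted p of 0.05, against 2.1% of 14105 genes tested by edgeR. At an unadjusted p under 0.05 it was 2 of 5, KRT8 and KRT18, both lower, against 14.4% of all genes in either direction and 7.55% that were lower at that p. limma-voom called 1 of the 5. DESeq2 called neither KRT8 nor KRT18 and gave KRT19, KRT10 and KRT80 no adjusted p. KRT8 had a log2 fold change of -0.20 (SE 0.057, adjusted p = 0.0603 by edgeR) and was lower in 3 of 4 lines. KRT18 had a log2 fold change of -0.16 (SE 0.056, adjusted p = 0.150 by edgeR), again lower in 3 of 4 lines.

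The WT line decided both calls. Without it, over the 3 mutant lines, KRT8 fell by 0.28 on the log2 scale (SE 0.054, adjusted p = 0.00119 by edgeR) and KRT18 fell by 0.22 (SE 0.055, adjusted p = 0.0180 by edgeR). Calls rose over all genes too, to 501 of 14210 tested (320 lower) from 296 of 14105 (211 lower) with all 4 lines. KRT8 was also past the threshold in limma-voom (adjusted p = 0.0433) and without the filter on low counts (adjusted p = 0.0335 by edgeR), but not in DESeq2 (adjusted p = 0.114). After these values had been seen, the difference itself was tested, as the Dox change of the 3 mutant lines minus that of the WT line, with 1 WT line on one side. It was -0.31 for KRT8 (SE 0.11, unadjusted p = 0.00636, adjusted p = 0.483 by edgeR) and -0.24 for KRT18 (SE 0.11, unadjusted p = 0.0385, adjusted p = 0.678 by edgeR). Neither passed the threshold, as 0.163% of all genes did, so the lines were not shown to differ.

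The size of the difference depended on how libraries were scaled. Without TMM factors, as plain CPM, the log2 ratio of KRT8 was -0.14 in K451R and -0.15 in K450RK451R, and that of KRT18 was -0.07 and -0.14 in these lines. Both genes remained lower with Dox in the mutant lines, with the KRT18 interval in K451R now including 1, and KRT8 in the WT line moved to 0.07.

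KRT19 had 9.60 CPM in Veh and 11.8 CPM in Dox in the WT line. It had 10.2 and 8.83 CPM in K450R, 9.22 and 5.93 CPM in K451R, and 8.90 and 6.49 CPM in K450RK451R. As with the pair, the 3 mutant lines were lower with Dox and the WT line was not, and the counting interval excluded 1 in K451R (0.46 to 0.899) and in K450RK451R (0.534 to 0.994). Over the 4 lines the log2 fold change was -0.21 (SE 0.17, adjusted p = 0.628 by edgeR), and the mutants differed from WT by -0.73 (SE 0.36, adjusted p = 0.70 by edgeR). Each library held 73 to 114 counts of KRT19, and with the second columns only its ratio in K450R was above 1, at 1.08 (0.683 to 1.73).

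KRT80 was the only one of the 5 keratins that was lower with Dox in all 4 lines, as were 10.1% of all genes tested. This rests on the summed columns, since with the first columns only KRT80 was higher with Dox in K450R. The WT line had 7.07 CPM of it in Veh and 4.83 in Dox, K450R 5.91 and 4.90, K451R 4.85 and 4.06, and K450RK451R 5.26 and 4.17 CPM. Only in WT did the counting interval of the ratio exclude 1 (0.462 to 0.999), and its upper bound lay next to 1. Over the lines the log2 fold change was -0.36 (SE 0.21, adjusted p = 0.448 by edgeR), on 40 to 84 counts a library.

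KRT10 was higher with Dox in the WT line, where the pair was nearly level, and whether it differed from the pair was not tested. It went from 7.49 to 12.5 CPM in the WT line, a ratio of 1.67 with a counting interval of 1.25 to 2.23. In the mutant lines the intervals all included 1, with 8.49 and 8.94 CPM in K450R, 10.9 and 8.69 CPM in K451R, and 7.08 and 6.72 CPM in K450RK451R. In WT, 11.5% of all genes tested had an interval above 1. Over the 4 lines its log2 fold change was 0.11 (SE 0.18, adjusted p = 0.832 by edgeR) and turned to -0.12 without the WT line. The mutants differed from WT by -0.86 (SE 0.37, unadjusted p = 0.0253, adjusted p = 0.625 by edgeR). TMEM99, annotated in newer releases as the antisense gene KRT10-AS1, runs through KRT10 on the other strand and had 1.88 to 4.67 times its counts. In the WT line TMEM99 went the other way, from 28.3 to 23.5 CPM. The sources used here do not state whether reads were counted by strand, and without strand the reads of these 2 genes cannot be told apart.

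KRT7 had 1 to 7 counts in each stable-line library and was not tested. The WT line had 7 counts in Veh and 1 in Dox, K450R had 4 and 7, K451R had 2 and 4, and K450RK451R had 6 and 7, and all 4 counting intervals of the ratio included 1.

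Over the 5 tested keratins and the 4 lines, 10 of 20 counting intervals excluded 1, 9 of them with the lower value in Dox. The count was 8 with upper-quartile normalization, 8 in plain CPM, 8 with the first columns only and 7 with the second columns only. The intervals of KRT19 in K450RK451R and of KRT80 in WT included 1 under all 4 of these settings, and that of KRT19 in K451R included 1 with the second columns only. Over all tested genes and lines 27.7% of the intervals excluded 1, and 14.2% did so with the lower value in Dox. The 20 ratios are not independent, since the 5 keratins share each line's libraries.

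**Figure D3:**
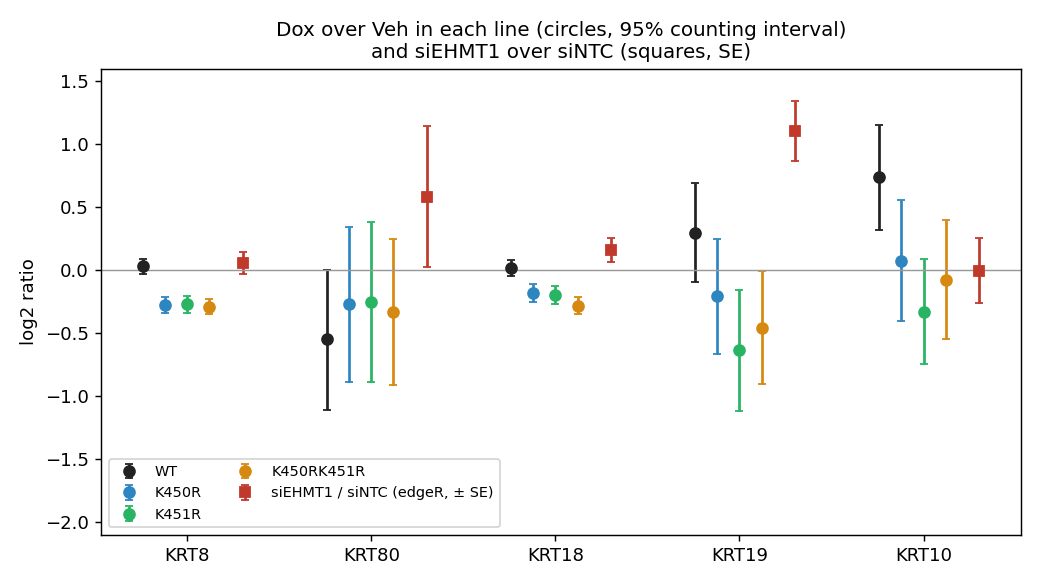
log2 ratio of Dox to Veh in each line for 5 keratins (circles, bars for the 95% counting interval) and the edgeR log2 fold change of siEHMT1 over siNTC (red squares, bars for the SE). The WT line (black) stands above the 3 mutant lines for KRT8, KRT18, KRT19 and KRT10 and below them for KRT80, and the siEHMT1 square is highest for KRT19.

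Levels in the siRNA samples and the stable lines were also set side by side, as a description only, since the tables are separate experiments that were scaled separately. The stable lines also differed from the parental cells in serum and in puromycin selection, whose part in the levels was not tested. All 5 tested keratins were higher in each of the 4 Veh libraries than in both siNTC samples, as were 29.4% of the genes tested in both tables. The ratio of the Veh mean to the siNTC mean was 2.40 for KRT8, 1.75 for KRT18, 1.90 for KRT19, 1.43 for KRT10 and 4.74 for KRT80. The order held when both tables were scaled together by TMM, where the ratios ran from 1.55 for KRT10 to 5.15 for KRT80.

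Ordered by level, KRT8 was highest in K450R Veh (479 CPM), WT Dox (478 CPM) and WT Veh (468 CPM), whose counting intervals overlapped from each to the next. K450RK451R Veh (438 CPM) and K451R Veh (408 CPM) followed, the latter overlapping with K450R Dox (395 CPM). K450RK451R Dox (358 CPM) and K451R Dox (338 CPM) overlapped and were the lowest stable-line libraries, and the siEHMT1 and siNTC means of 194 and 186 CPM, which overlapped too, stood below all of them. KRT18 kept the same order but for the last 2 stable-line libraries, which changed places, and 6 of its 9 neighbouring intervals overlapped. For KRT19, KRT10 and KRT7 every one of the 9 neighbouring intervals overlapped, and for KRT80 8 of 9 did, the exception being the step from the stable lines to the siRNA samples.

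KRT8 and KRT18 also moved together across the stable lines (Pearson r = 0.961 of log2 CPM over the 8 libraries), a description given without a test because the libraries share lines and scaling. KRT19 had r = 0.937 with each of them, KRT80 0.795 with KRT8, and KRT10 only 0.266 with KRT8. Among 9144 genes with a mean of at least 100 counts, the 3 whose pattern over the 8 libraries was most like that of KRT8 were the kinase gene PIM1 (r = 0.994), the cell-cycle inhibitor gene CDKN1C (0.986) and the glycolytic GAPDH (0.984). For KRT18 the nearest were the ephrin gene EFNA3 (r = 0.995) and PFKFB3 (0.991), whose product makes an activator of glycolysis.

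Because the chains pair, the balance of the types was followed within each library, where no scaling enters. The ratio of KRT8 to KRT18 per kilobase was 0.671 and 0.741 in siNTC and 0.626 and 0.685 in siEHMT1. The WT line had 0.982 in Veh and 0.99 in Dox, K450R had 0.983 and 0.919, K451R had 0.918 and 0.871, and K450RK451R had 0.972 and 0.965. All stable-line libraries thus had a higher ratio than all siRNA samples, while within each table the ranges of the conditions overlapped. The log2 ratio changed with Dox by -0.04 ± 0.052 (SD, n = 4 lines, exact two-sided sign-flip permutation test, p = 0.375), where 0.125 is the smallest p that 4 lines allow. The ratio of all type II to all type I members was 0.595 to 0.708 in the siRNA samples and 0.844 to 0.953 in the stable lines. It was lower with Dox in 4 of 4 lines, by a mean log2 change of -0.05 ± 0.043 (SD, n = 4 lines, exact permutation test, p = 0.125, the smallest possible). The steps were small in WT (0.953 to 0.945) and in K450RK451R (0.943 to 0.937), and no counting interval was computed for this ratio.

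**Figure D4:**
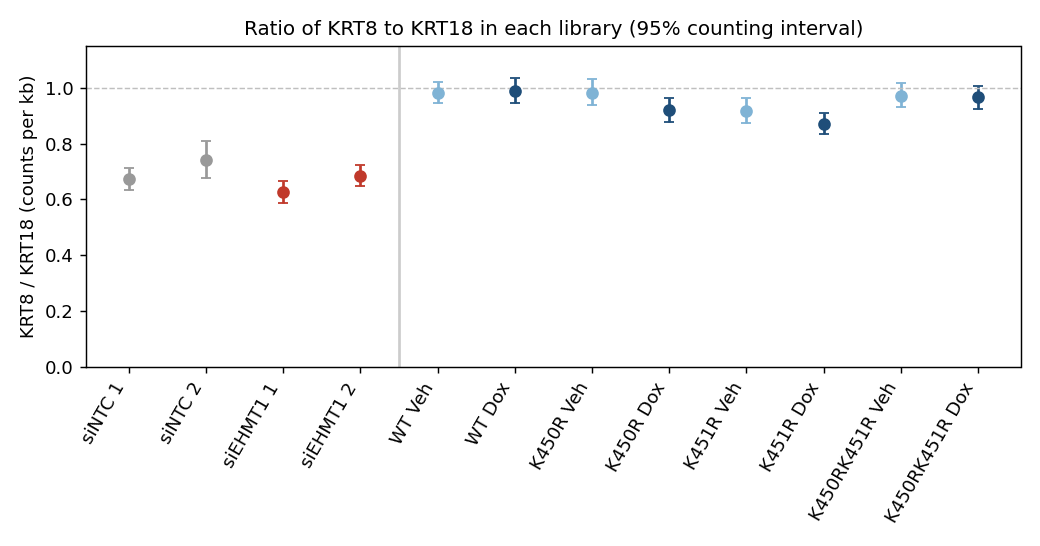
Ratio of KRT8 to KRT18, both per kilobase of canonical transcript, in each of the 12 libraries with bars for the 95% counting interval and a dashed line at 1 (grey siNTC, red siEHMT1, light blue Veh, dark blue Dox). The siRNA samples lie between 0.626 and 0.741 and the stable lines between 0.871 and 0.99.

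The level of that ratio depends on the transcript length used, which multiplies every library alike: with the length of all annotated exons it ran from 0.353 to 0.417 in the siRNA samples and from 0.49 to 0.557 in the stable lines. Processed copies of the pair are another limit. Of 50 annotated KRT8 pseudogenes 37 had counts, which added up to 11.3% to 14.2% of the KRT8 count, with KRT8P3 the most abundant at 2631 counts over all libraries. Of 67 KRT18 pseudogenes 38 had counts, 2.33% to 4.57% of the KRT18 count, led by KRT18P12 with 303 counts. Of 5 KRT19 pseudogenes only KRT19P1 was counted, 23 times. How reads that match several places were assigned is not given in the sources used here, so the levels of KRT8 and KRT18 are uncertain by an amount that these counts do not bound. With the pseudogene counts added to their parents, the ratio of KRT8 to KRT18 ran from 0.691 to 0.791 in the siRNA samples and from 0.945 to 1.08 in the stable lines.

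The other keratins were close to absent. Of the 50, 33 had no count in any library and none passed the filter on low counts. KRT14, a basal keratin, had the most, with 88 counts over the 12 libraries and 18 in WT Veh. KRT20, chosen here after its values were seen, is a keratin of intestinal and urothelial surface cells. It had 1 and 0 counts in siNTC and 9 and 13 counts in siEHMT1, a ratio of 15.6 with a counting interval of 2.52 to 643, which does not cover the spread between samples.

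Genes whose products anchor keratin filaments or link them to the cell border, such as desmosomal proteins, showed few calls. Of 22 such genes 17 were tested with siEHMT1, and none passed the threshold, with a median log2 fold change of -0.11 beside -0.0021 over all genes. Desmoplakin (DSP) and desmocollin 3 (DSC3) had the lowest p, with log2 fold changes of -0.30 (SE 0.11, adjusted p = 0.361 by edgeR) and -0.30 (SE 0.12, adjusted p = 0.433 by edgeR). With Dox, 1 of 16 tested rose, against 0.603% of all genes. It was FAM83H, whose product organises keratin filaments (log2 fold change 0.27, SE 0.069, adjusted p = 0.0337 by edgeR). DSP was next at -0.16 (SE 0.061, adjusted p = 0.180 by edgeR).

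Among 24 genes of epithelial identity (junction and surface proteins and epithelial transcription factors), 23 were tested and none passed with siEHMT1. The tight-junction scaffold TJP1 had a log2 fold change of -0.34 (SE 0.09, adjusted p = 0.171 by edgeR) and EHF of -0.16 (adjusted p = 0.563). With Dox, 2 of 23 fell, as 1.5% of all genes did. These were the epithelial transcription factor ELF3 (log2 fold change -0.66, SE 0.07, adjusted p = 1.1e-06 by edgeR) and the claudin CLDN4 (-0.29, SE 0.063, adjusted p = 0.00896 by edgeR).

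Of the luminal markers 6 of 13 tested rose with Dox, as 0.603% of all genes did. Among the 6 were FOXA1 (log2 fold change 0.36), SLC45A3 (0.23), TMPRSS2 (0.22) and HOXB13 (0.19), with adjusted p-values by edgeR from 0.000418 to 0.0493. The median log2 fold change of all 13 was 0.18, and 11 of them were positive. At an unadjusted p under 0.05 by edgeR 2 of the 13 were lower, against 7.55% of all genes, and neither passed the threshold. With siEHMT1 none of 14 passed, MSMB having a log2 fold change of 1.21 (adjusted p = 0.270) and TMPRSS2 of 0.27 (adjusted p = 0.284) by edgeR. No basal marker was tested in either comparison, since all 11 fell under the filter.

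Of the other intermediate filament genes 7 of 15 were tested and none passed in either comparison. With siEHMT1 synemin (SYNM) and lamin A/C (LMNA) had log2 fold changes of -0.73 (adjusted p = 0.261) and 0.20 (adjusted p = 0.540) by edgeR. With Dox lamin B1 (LMNB1) had 0.26 (adjusted p = 0.0620) and peripherin (PRPH) -0.25 (adjusted p = 0.0676) by edgeR.

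Markers of other cell types were as follows. The 12 mesenchymal and stromal genes summed to 547 to 869 CPM in the siRNA samples. In the stable lines they summed to 1674 to 3124 CPM. Of 12 mesenchymal and stromal genes 7 were tested and none passed, with FN1 at -0.27 (adjusted p = 0.560) and ACTA2 at 1.03 (adjusted p = 0.159) in siEHMT1, and FN1 at -0.21 (adjusted p = 0.0644) and COL1A1 at -0.15 (adjusted p = 0.411) with Dox, by edgeR. Of the 7 neuroendocrine genes CHGA, CHGB and INSM1 had no count in any library. The list was not absent, with a sum of 24.3 to 36.3 CPM in the siRNA samples. Its sum was 228 to 417 CPM in the stable lines. ENO2, which is also a glycolytic enzyme, fell with Dox (log2 fold change -0.39, SE 0.052, adjusted p = 4.01e-05 by edgeR) and had -0.49 (adjusted p = 0.201) with siEHMT1, where SYP had 0.43 (adjusted p = 0.809). The endothelial gene VWF was at 0.88 (adjusted p = 0.0721) with siEHMT1 and 0.24 (adjusted p = 0.676) with Dox, by edgeR. PTPRC and CDH5, which define blood and endothelial cells, had no count in any library. The list of immune and endothelial genes was not absent, however. Each of its other matched genes, VWF among them, was counted in some stable-line library. In bulk RNA, fewer cells of a type and less RNA per cell cannot be told apart, and the part of any of these genes in the keratin values was not tested.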

How the data were processed

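RNA-seq of 20 LNCaP samples was analysed from 2 tables of raw counts per gene that the authors deposited, made with STAR 2.7.2 and featureCounts 1.6.4 on hg19 (GRCh37), after FastQC 0.11.9, from 51-nt single-end reads of stranded total RNA libraries. The annotation release and the settings for strand and for reads with several matches are not given in the sources used here. No column of per-sample values was left unused. The members and gene lists were chosen with earlier results of these data known.

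The 2 columns of each stable-line condition were summed, as they differed by counting noise. The siRNA samples are 2 per group, and where nothing says that they came from separate cultures, p-values measure only the spread between these samples. Each table was tested with edgeR 4.0.16 in R 4.3.3 (filterByExpr, TMM, quasi-likelihood test with legacy set to false, which is not what this version presets, Benjamini-Hochberg over all genes tested, threshold 0.05), siEHMT1 against siNTC with 2 against 2 samples and Dox against Veh over 4 lines with the line as a block. limma 3.58.1 (voom) and DESeq2 1.42.0 were alternatives. CPM values use TMM-scaled library sizes, and log2 CPM for correlations a prior count of 2. Levels per kb use the canonical transcript of GENCODE v44lift37. Within a line, Clopper-Pearson 95% intervals on the split of the counts were used, and Poisson intervals for levels (SciPy 1.17.1). Intervals and floors cover counting error only, reads without molecular identifiers not being independent molecules. The comparison of the mutants with WT and the union exon length were added after seeing the data.

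All 6 members were named, the 3 nearest genes in pattern for members with a mean of 100 counts or more, and of each list the 2 genes with the lowest p in each test and any past the threshold. A few genes that this rule names are not reported here. Promoter windows are from RefSeq (GRCh38.p14).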

Additional observations from a re-analysis of the deposited data

Results flagged for a closer look

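Samples standing apart from their group were sought in 19 sets of 4 values, the 4 lines with Veh, with Dox or as the Dox over Veh change. For independent values of 1 group, chance alone gives about 1 in 20 such sets. These sets hold different lines and reuse the same libraries, so the 3 that were found cannot be set against that rate. The log2 ratio of Dox to Veh of KRT8 in the WT line, 0.031, lay far from those of the 3 mutant lines, which were between -0.29 and -0.27. The ratio of KRT8 to KRT18 per kb in untreated K451R cells, 0.918, lay below the other 3 Veh libraries at 0.972 to 0.983. The ratio of type II to type I keratins in the same library was 0.882 against 0.943 to 0.953, and it rests largely on the same counts of KRT8 and KRT18.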

How the results depend on the processing

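For siEHMT1 against siNTC, the count of keratins past the threshold stayed at 0 but for 1 with the replicate block and 0 to 1 with a replicate left out. That keratin was KRT19, whose log2 fold change was 1.09 (adjusted p = 0.00836) with the replicate block and 0.87 to 1.30 with a replicate left out. The labels state no pairing behind the replicate numbers. Samples with the same number did not deviate together from the mean of their group (Pearson -0.0023, Spearman 0.029 over 14532 genes). With so few samples, this cannot show whether they were prepared together. The block moved the count of all genes called from 19 to 127. DESeq2 gave KRT19, KRT10 and KRT80 no adjusted p. KRT10 turned positive without a filter on low counts (0.0013) and with upper-quartile normalization (0.020), and ran from -0.13 to 0.10 with a replicate left out. A lone sample left in a group was assumed to vary like the other group. KRT80 ran from -0.14 to 1.27 when a replicate was left out.

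For Dox against Veh the count was 0, but 1 in limma-voom (KRT8, -0.20), 1 without a filter on low counts (KRT8, -0.19), and 0 to 2 with a line left out, the 2 arising without the WT line. With a line left out KRT8 ran from -0.28 to -0.17, KRT18 from -0.22 to -0.12 and KRT10 from -0.12 to 0.28. Over all genes, 296 were called, 140 by DESeq2, 4 with no line block, and 114 to 501 with a line left out. With plain CPM, 1 keratin (KRT8) instead of 0 had intervals on both sides of 1 in different lines. Of 80 values within a line under other settings, 4 left the counting interval of the reported value, all in plain CPM. Some values inside it still changed sign. With the second columns only, the log2 ratio in K450R was 0.11 for KRT19 and -0.02 for KRT10. With the first columns only, it was 0.20 for KRT80 in K450R, 0.10 for KRT10 in K450RK451R and -0.02 for KRT18 in WT. KRT10 in K450RK451R was also at 0.06 in plain CPM. The causes were not tested. Depth limits KRT7, KRT80, KRT10 and KRT19 most, with at most 136 counts a library.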
